A study of Mus musculus with 28 samples.

Results

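Genes that mark the gas-exchange surface of the lung were examined in mice that express human A3B, a cytosine deaminase that acts on single-stranded nucleic acid. Of the 10 genes, taken from the 24849 rows of the expression table, 5 (Ager, Hopx, Aqp5, Pdpn and Rtkn2) are markers of alveolar type I cells and 5 (Pecam1, Cdh5, Kdr, Tek and Cldn5) are markers of endothelium. The rule that names them uses gene names and no measured value, but the genes were chosen with earlier results of these data known. The comparison was between 3 A3B lungs (mice 69, 70 and 74) and 3 control lungs (mice 87, 88 and 91), with 3 A3B livers (mice 23, 28 and 70) and 3 control livers (mice 11, 91 and 92) set beside them, out of 28 samples in all. It asks whether these markers of lung structure differ in level when A3B is induced.

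A3B mice were labelled A3B + CAGS-rtTA, that is, they carried human A3B fused to turboGFP behind a tetracycline operator at the ColA1 locus together with an rtTA transactivator driven by the constitutive CAGs promoter. The driver is active in many adult tissues, and which lung cells expressed A3B was not measured here. Control lung 87 was labelled CAGs, the driver alone, and control lungs 88 and 91 A3B, the transgene alone. Control livers 91 and 92 also carried A3B alone, whereas control liver 11 was labelled A3B + CAGS-rtTA, the genotype of the A3B mice. Doxycycline was given in food at 625 ppm to adult mice, which were 4 weeks old at the start, for 10 days in the 3 A3B lungs and A3B liver 70 and for 14 days in A3B livers 23 and 28. The labels give 15 days for all controls, and the study's methods also have control mice receive doxycycline, while its list of animals gives control mice 11, 88, 91 and 92 none. Transgene expression therefore cannot be told apart from length of treatment or, if the list holds, from the drug itself. Mouse 70 gave both an A3B lung and an A3B liver, and mouse 91 both a control lung and a control liver.

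Alveolar type I cells are thin, flat epithelial cells that cover most of the alveolar surface, and gases cross them into capillaries that lie directly beneath. The endothelium of these capillaries is held together by adherens junctions and tight junctions and is maintained by vascular endothelial growth factor (VEGF) and angiopoietin signals, the former produced in part by alveolar type I cells. In the mouse lung the capillaries consist of aerocytes, which face the gas-exchange surface, and general capillary cells. The values are TPM, transcript abundances corrected for length and scaled so that each library sums to 1000000. In bulk tissue fewer cells of a type and less RNA per cell cannot be told apart.

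The A3B transgene was listed at 90.6, 281 and 115 TPM in A3B lungs 69, 70 and 74 and at 0.435 to 0.526 TPM in control lungs. In livers it was listed at 705 to 1705 TPM in A3B mice and at 0.0929 to 0.145 TPM in controls. Control liver 11, labelled with the genotype of the A3B mice, was at 0.145 TPM, level with control liver 91 at 0.143 TPM. Relative to Tbp, which encodes the TATA-binding protein, the transgene stood at 9.0, 36.9 and 14.1 in A3B lungs 69, 70 and 74. Correlations across genes were 0.986 to 0.994 between lungs of one group and 0.932 to 0.995 between livers of one group. A3B liver 28 stood apart from the other livers, and its correlation with A3B liver 70 was the lowest, at 0.932. Hepatocyte transcripts were present in lungs of both groups, and Alb was listed at 0.331, 245 and 23.6 TPM in control lungs 87, 88 and 91 and at 3.83, 189.8 and 216 TPM in A3B lungs 69, 70 and 74. The summed level of all 8 hepatocyte markers was 29.2 to 779.7 TPM in control lungs and 37.0 to 789.9 TPM in A3B lungs, so the groups overlapped. The sex-linked genes, 4 of the Y chromosome and Xist, which was listed at 0, summed to 33.6 TPM in control liver 11 and to no more than 0.0274 TPM in each of the other 11 samples, the 6 lungs included.

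The starts of the 3 genes that passed the test in the lung are shown so that the regulatory sequence beside the values can be read. Each is 300 bases long, from 250 before to 50 after the start of the gene, on the gene's strand, from RefSeq on GRCm38.p6. Capitals mark any match to a motif of factors that act in these cells, searched on both strands: the ETS core CCGGAA, the TEAD motif GGAATG, the FOX motif TGTTTAC and the NKX2-1 core CAAGTG.

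Cldn5, chr16:18776597-18776896, plus strand: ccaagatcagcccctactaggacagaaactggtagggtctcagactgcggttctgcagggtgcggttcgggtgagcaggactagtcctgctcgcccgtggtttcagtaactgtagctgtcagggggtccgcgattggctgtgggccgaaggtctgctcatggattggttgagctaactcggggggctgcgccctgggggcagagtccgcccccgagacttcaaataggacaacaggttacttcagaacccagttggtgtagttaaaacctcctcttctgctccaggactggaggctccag

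Kdr, chr5:75978406-75978705, minus strand: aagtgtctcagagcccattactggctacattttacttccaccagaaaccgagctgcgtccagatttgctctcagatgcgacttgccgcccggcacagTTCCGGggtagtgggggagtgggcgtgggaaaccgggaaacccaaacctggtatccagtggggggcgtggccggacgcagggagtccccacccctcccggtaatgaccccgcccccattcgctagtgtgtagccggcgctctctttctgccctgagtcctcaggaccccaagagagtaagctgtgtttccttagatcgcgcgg

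Pdpn, chr4:143299515-143299814, minus strand: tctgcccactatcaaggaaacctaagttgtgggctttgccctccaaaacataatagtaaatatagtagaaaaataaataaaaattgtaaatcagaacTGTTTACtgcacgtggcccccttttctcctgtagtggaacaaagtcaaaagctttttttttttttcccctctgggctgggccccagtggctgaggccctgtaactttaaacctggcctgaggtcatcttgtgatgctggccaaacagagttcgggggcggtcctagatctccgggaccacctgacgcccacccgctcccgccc

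The Kdr sequence holds 1 ETS core, read on the opposite strand, with its first base at position -153, and the Pdpn sequence holds 1 FOX motif, also at position -153. The Cldn5 sequence holds none of the 4 motifs. RefSeq entries were found for 7 of the 10 genes, with 8 starts, since Hopx has 2. Rtkn2, Pecam1 and Cdh5 had no entry in the set of starts used here. Among the 8 starts, 1 held the ETS core, where 14.9% of all 32851 starts did, and 1 held the FOX motif, against 3.65% of all starts. The NKX2-1 core stood in 2 (one of the Hopx starts and that of Tek), against 13.6%, and the TEAD motif in 0, against 14.7%. These matches are letters in a window and describe no binding.

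In control lungs the 10 genes spanned a wide range of levels in TPM, which is scaled by length. The gene models behind that scaling are not given in the sources used here, so the order of the genes is a description. Cldn5 was highest, at 2946 ± 106 TPM (SD, n = 3), followed by Ager at 919.7 ± 124, Rtkn2 at 565 ± 96.8, Aqp5 at 483 ± 58.0, Pecam1 at 315.5 ± 19.6, Tek at 238 ± 33.7, Hopx at 179.8 ± 23.3, Kdr at 107 ± 22.6, Pdpn at 31.2 ± 5.67 and Cdh5 at 14.3 ± 3.06 TPM. The ranges of Rtkn2 and Aqp5 overlapped, as did those of Tek and Hopx, and the other neighbours in this order did not.

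In the lung, 3 of the 10 genes differed between A3B and control mice, by limma on log2(TPM + 1) with p-values adjusted over all 13651 genes tested. Cldn5, which encodes the main tight-junction claudin of endothelium, was higher in A3B lungs, with a fold of 1.41. Kdr, the gene of VEGF receptor 2, was lower, at 0.616 of the control level, and so was Pdpn, which encodes the membrane glycoprotein podoplanin, at 0.671. The fraction is to be read against a background of 36.8% of all genes called in this comparison, 16.1% higher and 20.8% lower. All 10 genes passed the filter on low values, and 5 of the 10 had groups that did not overlap, against 53.9% of all genes tested. The median log2 fold change of the 5 endothelial genes was -0.06. Their summed level, led by Cldn5, was 3468 to 3815 TPM in control lungs and 4448 to 5117 TPM in A3B lungs. Their mean log2 levels overlapped between the groups. The count of calls among the 10 genes is thus near that of genes at large.

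**Figure D1:**
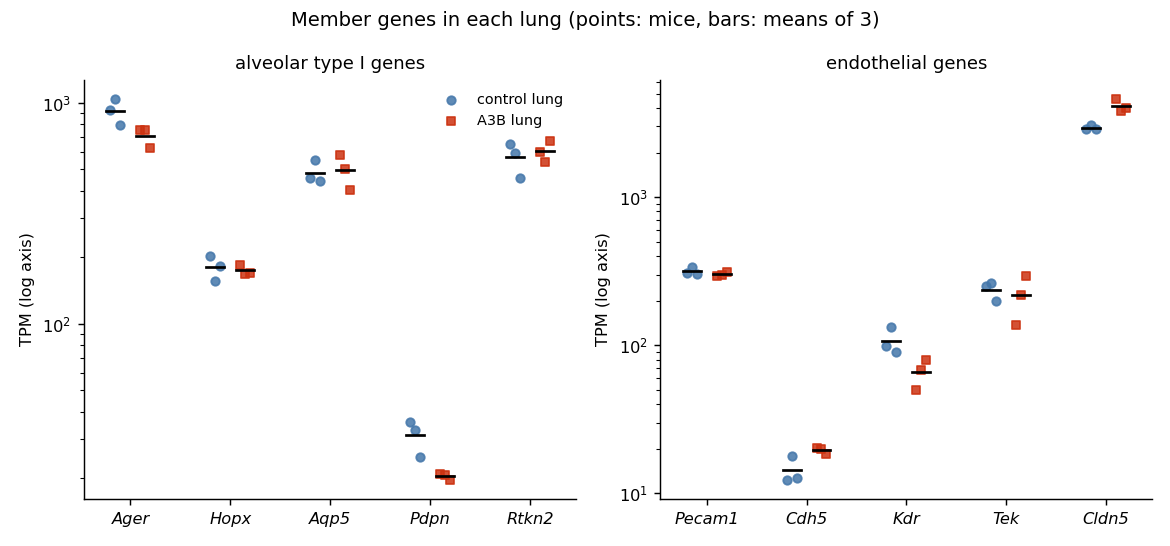
Levels of the 10 genes in each lung, as TPM on a log axis, with alveolar type I genes on the left and endothelial genes on the right. Circles are the 3 control lungs, squares the 3 A3B lungs and bars the means. The A3B lungs lie above all control lungs for Cldn5 and Cdh5 and below them for Ager, Pdpn and Kdr, and the groups overlap for the other 5 genes.

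Among the alveolar type I genes, Ager encodes RAGE, a pattern-recognition receptor of the immunoglobulin family that is held on the basal membrane of these cells. On chromosome 17 of GRCm38 it runs from 34597862 to 34600936 (GENCODE M21, plus strand, up to 11 exons). Ager was at 923, 1042 and 794 TPM in control lungs 87, 88 and 91 and at 752, 754 and 623 TPM in A3B lungs 69, 70 and 74. Every A3B lung lay below every control lung, by a small gap between 754 and 794 TPM. The log2 fold change was -0.37 (standard error 0.14, 95% interval -0.70 to -0.04), and the limma adjusted p of 0.0736 did not pass the threshold of 0.05.

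Pdpn (chromosome 4, 143267431 to 143299564, minus strand) was at 35.7, 33.0 and 24.8 TPM in control lungs 87, 88 and 91 and at 20.8, 20.7 and 19.6 TPM in A3B lungs 69, 70 and 74. The A3B lungs lay close together and below all controls, of which lung 91 was nearest to them. The log2 fold change was -0.58 (standard error 0.14, limma adjusted p = 0.0215). Podoplanin is also made by lymphatic endothelium, whose other markers are given with the vascular lists.

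Rtkn2 lies on chromosome 10 from 67979570 to 68059740. It was at 647, 590.0 and 458.5 TPM in control lungs 87, 88 and 91 and at 600.3, 540.0 and 669.5 TPM in A3B lungs 69, 70 and 74. The groups overlapped and the log2 fold change was 0.10 (95% interval -0.27 to 0.47). Aqp5, the apical water channel of type I cells, lies on chromosome 15 from 99590782 to 99594829. Its level was 456, 549.6 and 443 TPM in control lungs 87, 88 and 91 and 582, 499 and 404 TPM in A3B lungs 69, 70 and 74, again overlapping, with a log2 fold change of 0.03 (95% interval -0.36 to 0.41). Hopx, a homeodomain protein that does not bind DNA, lies on chromosome 5 from 77086988 to 77115121. It was at 202, 156 and 182 TPM in control lungs 87, 88 and 91 and at 184, 168 and 170.2 TPM in A3B lungs 69, 70 and 74, with a log2 fold change of -0.04 (95% interval -0.32 to 0.24). The intervals of these 3 genes reach no further than 0.47 on the log2 scale in either direction. The antisense genes Hopxos and Gm16212 overlap Hopx and Rtkn2, and how strand was used in counting is not given in the sources used here, so reads of both partners may be mixed.

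The 5 type I genes thus did not move as one. Their summed level was 1902 to 2371 TPM in control lungs and 1886 to 2139 TPM in A3B lungs. Their median log2 fold change was -0.04, beside -0.06 over all genes tested.

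Among the endothelial genes, Pecam1 encodes CD31, an adhesion molecule at the contacts between endothelial cells, and lies on chromosome 11 from 106654217 to 106750628. It was at 307, 338 and 301.5 TPM in control lungs 87, 88 and 91 and at 295, 298 and 313 TPM in A3B lungs 69, 70 and 74. The groups overlapped and the log2 fold change was -0.06 (95% interval -0.27 to 0.15).

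Cdh5 encodes VE-cadherin, the adhesion molecule of endothelial adherens junctions, and lies on chromosome 8 from 104101625 to 104144511. It was at 12.3, 17.8 and 12.7 TPM in control lungs 87, 88 and 91 and at 20.4, 20.0 and 18.3 TPM in A3B lungs 69, 70 and 74. All A3B lungs lay above all controls, control lung 88 being just below them. The log2 fold change was 0.45 (standard error 0.15), with a limma adjusted p of 0.0556 that missed the threshold. It passed in 4 of 15 alternatives, namely without control lung 88 (0.60, adjusted p = 0.0123), with a filter at 5 TPM and with median-ratio or quantile scaling. The antisense gene Gm29682 overlaps Cdh5.

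Cldn5, a gene of 1 exon on chromosome 16 (18776847 to 18778262, plus strand), was at 2907, 3066 and 2865 TPM in control lungs 87, 88 and 91 and at 4616, 3843 and 4008 TPM in A3B lungs 69, 70 and 74. The lowest A3B lung stood clearly above the highest control. The log2 fold change was 0.49 (standard error 0.11, limma adjusted p = 0.0142). Without A3B lung 69, the highest of the 6, it was 0.41 with an adjusted p of 0.0511.

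Kdr lies on chromosome 5 from 75932827 to 75978458, on the minus strand, with 30 exons. It was at 98.5, 133 and 89.97 TPM in control lungs 87, 88 and 91 and at 49.5, 68.1 and 79.9 TPM in A3B lungs 69, 70 and 74. The groups did not overlap, although A3B lung 74 came near control lung 91. The log2 fold change was -0.70 (standard error 0.22, limma adjusted p = 0.0433).

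Tek encodes TIE2, the angiopoietin receptor, and lies on chromosome 4 from 94739289 to 94874976. It was at 252, 261.5 and 199 TPM in control lungs 87, 88 and 91 and at 136.5, 218 and 295 TPM in A3B lungs 69, 70 and 74, so that the A3B lungs enclosed the controls. The coefficient of variation was 36.7% among A3B lungs and 14.2% among control lungs, and the log2 fold change was -0.19 (95% interval -0.87 to 0.49). A3B lung 69 had the lowest Kdr and Tek and the highest Cldn5 and Cdh5 of the A3B lungs, and the lowest transgene level.

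The number of calls among the 10 genes depended on single lungs. It was 0 without A3B lung 69, 1 without control lung 87 (Cldn5) and 1 without A3B lung 70 (Cldn5), and it was 0 when the 6 livers shared the variance estimate. Leaving out any lung kept the sign of Cldn5, Kdr and Pdpn. With the mean of the hepatocyte markers as a covariate, a fit chosen after seeing the data, the 3 log2 fold changes were 0.51, -0.84 and -0.56, and all 3 were called.

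**Figure D2:**
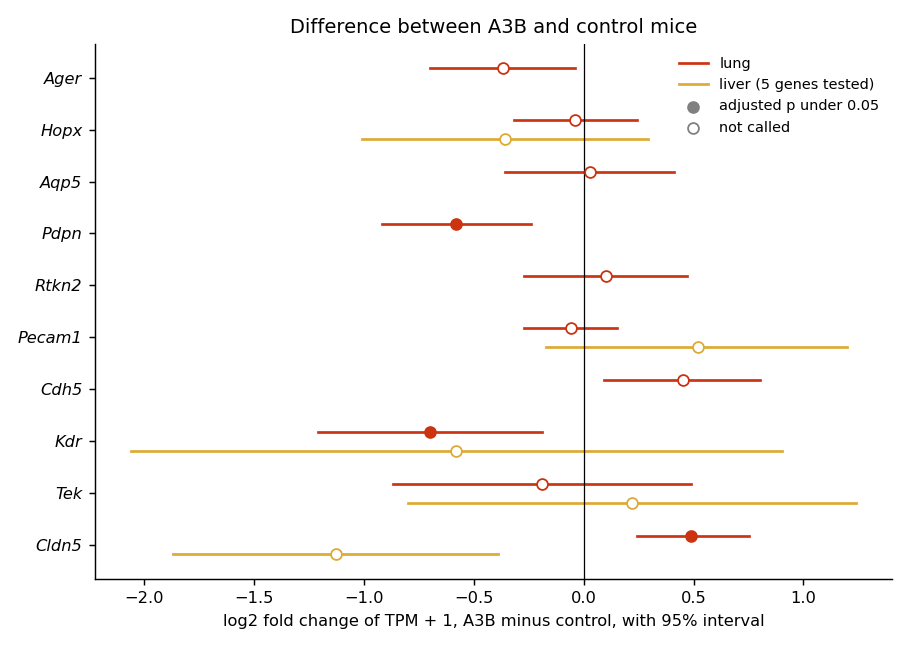
Log2 fold changes of TPM + 1 between A3B and control mice with their 95% intervals, for 10 genes in the lung and the 5 that could be tested in the liver. Filled points passed an adjusted p of 0.05. Cldn5 is at 0.49 in the lung and at -1.13 in the liver, and Kdr and Pdpn lie below 0 in the lung.

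Ratios of 2 genes within one lung do not change with the scale of the library. The ratio of Cldn5 to Pecam1 was 9.47, 9.07 and 9.50 in control lungs 87, 88 and 91 and 15.7, 12.9 and 12.8 in A3B lungs 69, 70 and 74. That of Kdr to Pecam1 was 0.321, 0.392 and 0.298 in controls and 0.168, 0.229 and 0.255 in A3B lungs. The ratio of Ager to Aqp5 was 2.02, 1.90 and 1.79 in controls and 1.29, 1.51 and 1.54 in A3B lungs, and that of Pdpn to Aqp5 was 0.0560 to 0.0782 in controls and 0.0358 to 0.0486 in A3B lungs. The pairs were chosen with the levels known, so that these ratios restate the levels on a scale free of library size and are no further test. The ratios of Tek to Pecam1, Rtkn2 to Aqp5, Hopx to Aqp5 and Tie1 to Tek overlapped.

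**Figure D3:**
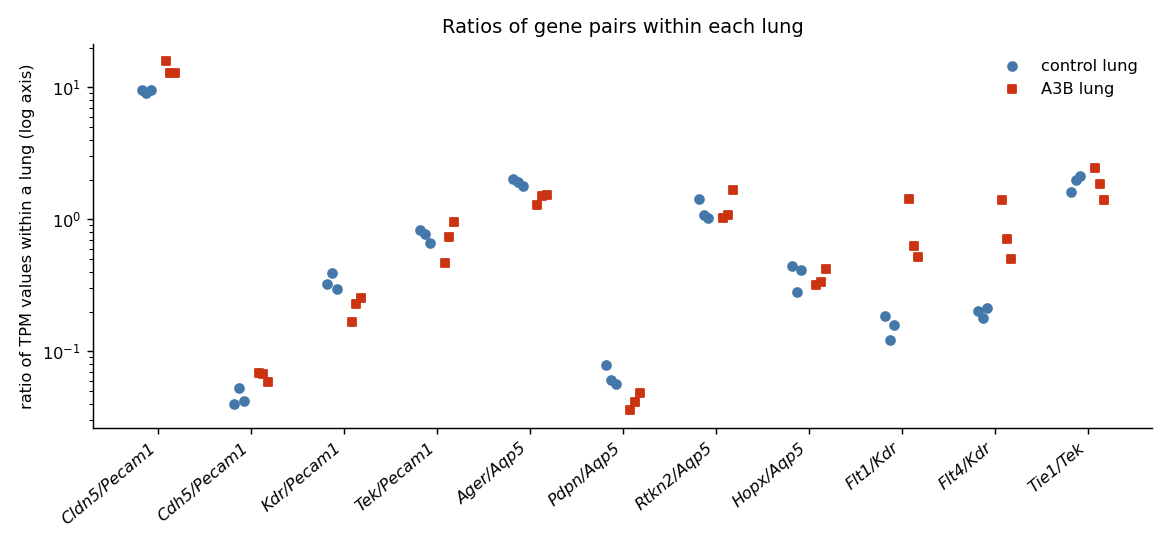
Ratios of TPM values of 11 gene pairs within each lung, on a log axis. Circles are the 3 control lungs and squares the 3 A3B lungs. The squares lie above the circles for Cldn5/Pecam1, Cdh5/Pecam1, Flt1/Kdr and Flt4/Kdr and below them for Kdr/Pecam1, Ager/Aqp5 and Pdpn/Aqp5.

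The receptors and ligands around Kdr moved in both directions. Flt1, the gene of VEGF receptor 1, was at 18.3, 16.1 and 14.2 TPM in control lungs 87, 88 and 91 and at 70.1, 42.5 and 41.5 TPM in A3B lungs 69, 70 and 74. Flt4, the gene of VEGF receptor 3, was at 19.2 to 23.7 TPM in controls and at 70.0, 48.1 and 40.2 TPM in A3B lungs 69, 70 and 74. Both rose, by 1.57 and 1.26 on the log2 scale (limma adjusted p = 0.00487 and 0.00675), where Kdr fell. The ratio of Flt1 to Kdr was 0.122 to 0.185 in control lungs and 1.42, 0.623 and 0.519 in A3B lungs 69, 70 and 74. Of the ligands, Vegfa was at 1779 to 1908 TPM in controls and 1316 to 1364 TPM in A3B lungs and fell by 0.45 on the log2 scale (limma adjusted p = 0.0101). Pgf, the placental growth factor, rose by 0.49 (limma adjusted p = 0.0472), whereas the coreceptors Nrp1 (-0.24) and Nrp2 (-0.10) did not pass the test. Of the 10 genes of VEGF ligands and receptors 3 were higher and 2 lower, Kdr among the latter, where 36.8% of all genes were called, 16.1% higher and 20.8% lower. The median log2 fold change of the list was -0.08. Pgf was called in 6 of 15 alternatives, and 2 genes were higher and 1 lower without control lung 87 or 91 or A3B lung 69 or 70.

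Around Tek, 2 of 6 tested genes of the angiopoietin pathway were higher and 0 lower, a share near the 36.8% of all genes called. These were Angpt1 (0.46, limma adjusted p = 0.0455), the activating ligand, and Ptprb (0.88, adjusted p = 0.00504), the phosphatase VE-PTP that acts on TIE2 and VE-cadherin. Tie1, its companion receptor, had a log2 fold change of -0.23 (adjusted p = 0.225), and Angpt2 was listed at 0 in all 12 samples. Without control lung 91 or any 1 of the A3B lungs 1 gene was called, and 0 when all 12 samples shared the variance estimate, and Angpt1 was called in 7 of 15 alternatives.

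Of 22 further pan-endothelial genes 5 were higher and 6 lower, with a median log2 fold change of -0.22, again beside 36.8% of all genes called. Nos3, endothelial nitric oxide synthase, was at 15.0 to 18.6 TPM in control lungs and at 88.6, 53.6 and 35.2 TPM in A3B lungs 69, 70 and 74, a log2 fold change of 1.62 (limma adjusted p = 0.0119). Atg9b overlaps Nos3 on the opposite strand. S1pr1 (0.86), a sphingosine 1-phosphate receptor, Ptprb (0.88), Esam (0.45), a junctional adhesion molecule, and the ETS factor Fli1 (0.46) were higher as well. The transcription factors Sox7 (-1.26) and Sox18 (-1.19), the surface proteins Clec14a (-1.19), Icam2 (-0.67) and Emcn (-0.62), and Egfl7 (-0.33) were lower. The 5 higher and 6 lower calls became 3 and 4 without control lung 87 or A3B lung 69, 4 and 4 without control lung 91, and 1 and 2 with the variance shared over all 12 samples. Egfl7 was called in 6 of 15 alternatives and Fli1 in 6 of 14.

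The genes of arterial identity that were called were all lower, while others were not called. Dll4, a Notch ligand, was at 117, 171 and 147 TPM in control lungs 87, 88 and 91 and at 45.3, 43.2 and 48.6 TPM in A3B lungs 69, 70 and 74. It fell by 1.63 on the log2 scale (limma adjusted p = 0.00214), Hey1, a Notch target, by 1.69 (adjusted p = 0.00593) and Gja4, the connexin 37 gene, by 1.23 (adjusted p = 0.00627). Their groups did not overlap, as in 53.9% of all genes tested. Efnb2, the arterial ephrin B2 gene, had a log2 fold change of 0.21 (adjusted p = 0.287) and Sox17 one of -0.31 (adjusted p = 0.158), and Gja5 was too low to be tested. Of 13 tested arterial and venous genes 5 were lower, Bmx (-0.53) and Nr2f2 (-0.40) included, and 1 higher, the venous gene Slc6a2 (0.87), where 20.8% of all genes were lower and 16.1% higher. The median was -0.31. Slc6a2 was not called when any 1 lung but A3B lung 70 was left out, and 3 genes were lower without control lung 91, A3B lung 69 or A3B lung 70.

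The capillary lists were also split, and their counts stand beside the same shares of all genes. Of 10 aerocyte genes 5 were lower, namely Chst1 (-1.21), Apln (-1.17), Kitl (-0.86), Tbx2 (-0.69) and Car4 (-0.61), and 3 higher, namely Prx (1.08), Ednrb (0.88) and Fibin (0.68). Car4, a carbonic anhydrase of aerocytes, was at 300.1 to 317 TPM in control lungs and 179 to 222 TPM in A3B lungs, while Ednrb, the endothelin receptor B that marks the same cells, was at 9.61 to 14.8 TPM and 20.2 to 24.9 TPM. Of 10 general capillary genes 1 was higher, Foxf1 (1.29), and 1 lower, Plvap (-0.51). The 8 aerocyte calls became 5 without control lung 88 or 91, and the general capillary calls 5 without A3B lung 74. Among 5 tested lymphatic genes Flt4, Reln (1.17) and Mmrn1 (0.73) were higher and Pdpn was lower, with a median of 0.82, and Ccl21a was listed at 0. The lymphatic list summed to 51.6 to 70.7 TPM in control lungs and 80.4 to 113 TPM in A3B lungs, and 2 of its genes were called without A3B lung 70. Of 7 tested markers of liver sinusoidal endothelium 2 were higher in the lung. Lyve1, a hyaluronan receptor also present on lymphatics and some macrophages, rose by 2.13 on the log2 scale, from 373 to 507 TPM in controls to 1717 to 2411 TPM in A3B lungs (limma adjusted p = 0.00176), and Mrc1, the mannose receptor of macrophages, by 0.82. Without any 1 of the A3B lungs 1 of the 2 was called.

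Of the vascular genes with values above, Dll4, Efnb2, Sox17, Nrp1, Nrp2, Angpt1, Ptprb, Fli1, Prx, Reln, Foxf1, Plvap, Nr2f2, Egfl7, Mrc1, Angpt2 and Ccl21a also share their position with another annotated gene, so their reads may be mixed with it.

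**Figure D4:**
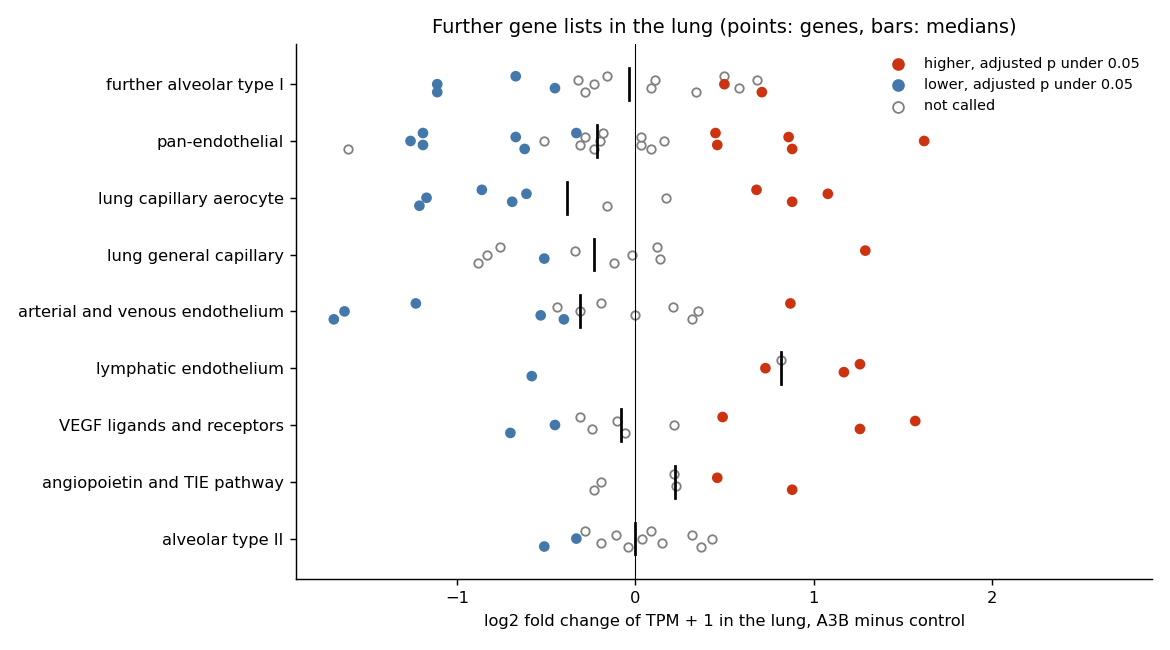
Log2 fold changes of TPM + 1 in the lung for the genes of 9 further lists. Each point is a gene, filled where the adjusted p was under 0.05, and bars are list medians. All vascular lists drawn but that of the angiopoietin pathway hold genes called in both directions, and medians lie at 0.82 for the lymphatic list and between -0.38 and 0.22 for the other vascular lists.

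Among 16 further alveolar type I genes 4 were lower and 2 higher, with a median log2 fold change of -0.03, a share of calls near the 36.8% of all genes. Cldn18, the tight-junction claudin of alveolar epithelium, was at 216 to 235.5 TPM in control lungs and at 79.7, 112 and 121 TPM in A3B lungs 69, 70 and 74. It fell by 1.11 on the log2 scale (limma adjusted p = 0.00549), the opposite of Cldn5. Igfbp2 (-1.11), a binding protein found in mature type I cells, Akap5 (-0.67) and Vegfa (-0.45) were lower too. Col4a3 (0.71) and Col4a4 (0.50), basement membrane collagens, were higher with limma adjusted p-values of 0.0498 and 0.0464. Neither was called without control lung 91 or without any 1 of the A3B lungs. Of 17 junction genes 2 were higher (Cldn5 and Esam) and 2 lower (Cldn18 and Jam3). Jam3 was called in 2 of 14 alternatives, and the number higher was 0 without A3B lung 69, 1 without control lung 87 or 91 or A3B lung 70, and 4 without A3B lung 74. Of 10 tested relatives of RAGE and AQP5, S100a4 (-1.37) and Hmgb1 (-0.31), which encode ligands of RAGE, were lower, and Aqp1 (0.83), the water channel of endothelium, was higher. Of 10 genes of the YAP and TEAD pathway Tead1 (0.51) and Tead4 (0.88) were higher and 0 were lower, with a list median of -0.23. The counts of the junction list, of the relatives of RAGE and AQP5 and of this list stand beside the same 36.8%. With 1 lung left out the calls ran from 2 to 5 among the relatives of RAGE and AQP5, most without control lung 88, and from 1 to 2 in the YAP and TEAD list, 1 without control lung 88 or 91 or A3B lung 69. Without A3B lung 70 the YAP and TEAD calls were 1 higher and 1 lower.

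Markers of other lung cells were measured beside these, and their counts stand beside 36.8% of all genes called, 16.1% higher and 20.8% lower. Of 12 alveolar type II genes 2 were lower, Sftpc (-0.33) and Lyz2 (-0.51), and 0 higher, and their summed level was 15060 to 17710 TPM in control and 16890 to 18430 TPM in A3B lungs. Of 10 genes of the alveolar transitional state Cdkn1a, the p21 gene, rose by 2.83 on the log2 scale (limma adjusted p = 0.0014) and Lgals3 fell by 0.36. Of 13 fibroblast, smooth muscle and pericyte genes 3 were lower (Tcf21, Tagln and Higd1b) and 2 higher (Pdgfra and Notch3), and of 8 club and ciliated genes Scgb3a2 and Tppp3 were lower, with a summed level of 10120 to 10820 TPM in control lungs and 8888 to 9504 TPM in A3B lungs. Of 11 macrophage and monocyte genes Marco (1.40) was higher and Ccr2 (-1.92) lower, and their summed level was 992 to 1489 TPM in control lungs and 1539 to 1682 TPM in A3B lungs. The lymphocyte list was at 136 to 477 TPM in controls and 109 to 213.5 TPM in A3B lungs, with Ms4a1 at 0, and the neutrophil list at 94.0 to 194 TPM and 157 to 501 TPM. The neutrophil sums overlapped, but the mean log2 levels, 2.73 to 3.19 in control and 3.29 to 4.56 in A3B lungs, did not. The erythroid list was at 9.25 to 29.4 TPM in control lungs and at 3.16 to 5.21 TPM in A3B lungs, with 5 of its 7 genes listed at 0 and Alas2 lower by 1.84 on the log2 scale. Adipocyte genes summed to 29.1 to 49.4 TPM in controls and 99.3 to 354.5 TPM in A3B lungs, with the highest value in A3B lung 70, Cfd at 0 and Plin4 called higher. The macrophage, club and ciliated, erythroid and adipocyte sums did not overlap between groups, but the mean log2 levels of the first 2 and of the adipocyte list did. Sum and mean log2 level both separated the groups for the erythroid list, for the arterial and venous list, for the lymphatic list (2.86 to 3.41 in control and 3.71 to 3.90 in A3B lungs) and for the pan-endothelial list, which summed to 6588 to 7227 TPM in control and 5319 to 6062 TPM in A3B lungs. Both measures also separated the list of VEGF ligands and receptors, but in opposite directions. Its sum was 1993 to 2147 TPM in control and 1601 to 1628 TPM in A3B lungs. Its mean log2 level was 4.642 to 4.923 in control and 4.936 to 4.975 in A3B lungs. Among single genes, the groups did not overlap for 53.9% of those tested. The part of these lists in the changes of the 10 genes was not tested. The lymphocyte, neutrophil, mesothelium, heart muscle, hepatocyte and proliferation lists held 0 genes called by limma, and at an unadjusted p under 0.05 there were 2 in the heart muscle list, 1 in the proliferation list and 0 in the others, where 36.8% of all genes were called and 48.8% had an unadjusted p under 0.05. With 1 lung left out, calls in the type II list ran from 1 to 4 (most without control lung 88) and in the transitional list from 1 to 3 (1 without control lung 91 or A3B lung 70). Calls appeared in the lymphocyte list (2) and the proliferation list (3) without control lung 87 and in the heart muscle list (3) without A3B lung 70. Plin4 was not called without control lung 91, nor Alas2 without A3B lung 69 or 74. Of the other listed genes named here, Cldn18, Col4a3, Jam3, S100a4, Hmgb1, Nkx2-1, Tead1, Tead4, Cdkn1a, Tcf21, Tagln, Pdgfra, Notch3, Alas2, Plin4, Ms4a1 and Gja5 share their position with another annotated gene too.

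All 10 genes were higher in each of the 6 lungs than in any of the 6 livers. Hopx, Pecam1, Kdr, Tek and Cldn5 averaged 1 TPM or more in the liver as well, and these 5 were called higher by limma in control lungs against control livers, where 59.3% of 13477 genes were. They were also called higher in A3B lungs against A3B livers, where 42.9% were. Ager, Aqp5, Pdpn, Rtkn2 and Cdh5 entered that comparison only through the lungs, which fixed the outcome, so their levels are given without a test. Aqp5, Pdpn and Rtkn2 stayed at or under 0.261 TPM in all livers, and Rtkn2 was listed at 0 in 3 of the 6. Ager was at 0.130 to 0.328 TPM in control livers and at 2.15, 1.42 and 0.392 TPM in A3B livers 23, 28 and 70. Hopx was the type I gene most present in liver, at 20.5 to 25.7 TPM in controls. For the 5 genes present in both tissues, the difference between control lungs and livers was 2.86 (Hopx), 3.20 (Kdr), 4.85 (Pecam1), 4.86 (Cldn5) and 5.05 (Tek) on the log2 scale, on which the median of all genes was 0.96. Median-ratio scaling moved that median to -0.02 and the higher share of all calls from 81.8% to 50.3%, and Hopx to 1.68 and Kdr to 2.06, with all 5 genes still called higher.

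**Figure D5:**
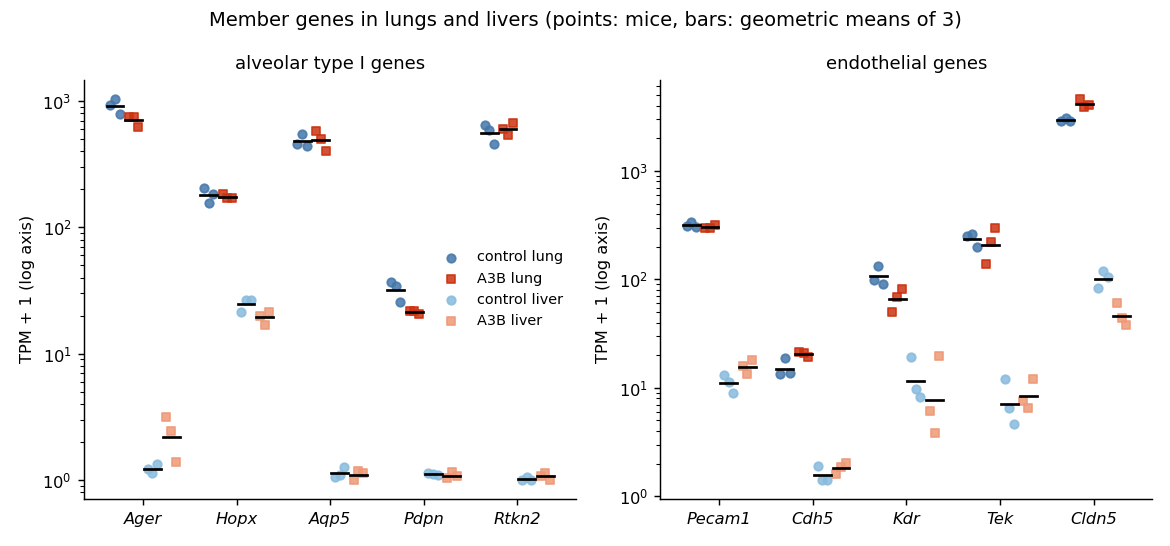
TPM + 1 of the 10 genes on a log axis in control lungs, A3B lungs, control livers and A3B livers, 3 mice each, with geometric means as bars. All lung points lie above all liver points of the same gene, and the Cldn5 points of A3B mice lie above the controls in lungs and below them in livers.

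In the liver 5 of the 10 genes (Hopx and all endothelial genes but Cdh5) had a mean of at least 1 TPM and were tested, and 0 were called by limma, where 7.93% of 11507 genes were. At an unadjusted p under 0.05 there was 1, Cldn5, where 32.6% of all genes passed. Cldn5 was at 82.5, 118 and 103.5 TPM in control livers 11, 91 and 92 and at 59.3, 42.7 and 36.8 TPM in A3B livers 23, 28 and 70. Every A3B liver lay below every control, as groups did not overlap in 38.9% of the genes tested, and the log2 fold change was -1.13 (standard error 0.32, limma adjusted p = 0.065). Without control liver 11, the control that differed in sex-linked genes and was labelled with both transgenes, it was -1.27 (adjusted p = 0.0564). Pecam1 was at 12.1, 10.2 and 7.98 TPM in control livers 11, 91 and 92 and at 14.9, 12.3 and 17.1 TPM in A3B livers 23, 28 and 70, also without overlap. Its log2 fold change was 0.52 (adjusted p = 0.26), and 0.10 with median-ratio scaling and 0.07 with quantile normalization. Kdr was at 18.3, 8.70 and 7.32 TPM in control livers 11, 91 and 92 and at 5.15, 2.83 and 18.8 TPM in A3B livers 23, 28 and 70, so that 1 liver of each group was high. Tek followed the same animals, with 11.1 TPM in control liver 11 and 11.0 TPM in A3B liver 70 and 3.63 to 6.52 TPM in the other 4. Liver fold changes stand on a scale on which the median of all genes was 0.39.

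The difference between tissues was tested as an interaction over the 12 samples. Of the 5 genes that could be tested in both tissues it was called for 1, Cldn5, where 10.7% of 13477 genes were called and 1.94% were called in its direction. The median of all genes was -0.39, and the higher share of all calls was 18%, against 56% with median-ratio scaling and 48.5% with quantile normalization. Cldn5 was higher in A3B lungs (0.49) and lower in A3B livers (-1.13), and the lung-minus-liver difference was 1.62 on the log2 scale (standard error 0.29, 95% interval 0.98 to 2.26, limma adjusted p = 0.00929). Without control liver 11 it was 1.76 (adjusted p = 0.00373). Ager, Aqp5, Pdpn, Rtkn2 and Cdh5 lay near 0 TPM in livers, and no difference between tissues is read for them.

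Across the 12 samples, the genes whose levels were most like the mean of the type I genes were Sec14l3, Cfap65, Mlc1, Lamp3 and Nkx2-1, with Pearson correlations of log2(TPM + 1) from 0.9995 to 0.9999. Those most like the mean of the endothelial genes were Ntng2, Gucy1b1, Timp2, Antxr1 and L1cam, with correlations from 0.9976 to 0.9989. These were taken from 10059 genes and describe mostly the step between lung and liver that all 12 samples share.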

How the data were processed

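RNA-seq libraries of lung and liver were made by the study with a stranded kit. The deposited values used here are TPM for each gene. The authors derived them from a matrix of reads counted with GenomicAlignments and GenomicFeatures after alignment to mm10. The gene models and the use of strand are not given in the sources used here. Column names show that duplicate reads had been treated before counting, which can lower the values of very abundant genes. TPM holds no counts, so the depth of each library is unknown. From the 24849 rows, 4 rows with 2 repeated names were left out. The other 16 samples of the series, in another table format, were not used here.

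Values were compared as log2(TPM + 1) with limma 3.58.1 in R 4.3.3 (trend and robust variances), for genes that averaged 1 TPM or more over the samples compared, with Benjamini-Hochberg adjustment over all genes tested and a threshold of 0.05. Fold changes are on the log2(TPM + 1) scale, which understates those of low genes. Separate animals were the replicates. The 10 genes and all further lists were chosen with earlier results of these data known. Named are the 10 genes, list members called in the lung or with the 3 smallest p-values of a list, the 5 genes most like each group, the transgene and Tbp. Single values from lists named beside a count, such as Alb, Nrp1, Nrp2, Tie1, Efnb2 and Sox17, were added after they were seen. Motifs were counted in RefSeq starts (GRCm38.p6) and coordinates taken from GENCODE M21 on GRCm38. Alternatives covered pseudocount, filter, scaling, variance model, each sample left out and the mouse as a block. The pairing is by animal, since mice 70 and 91 gave both tissues, and the estimated correlation within a mouse was 0.543.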

Additional observations from a re-analysis of the deposited data

Results flagged for a closer look

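The log2 fold change of Cldn5 between A3B and control mice differed between the tissues by 1.62 (lung minus liver, standard error 0.29, limma adjusted p = 0.00929 for the interaction). Doxycycline lasted 10 days in A3B lungs and 14 days in A3B livers 23 and 28. The transgene was at 90.6 to 281 TPM in A3B lungs and 705 to 1705 TPM in A3B livers. Tissue cannot be told apart from these differences. All 3 A3B lungs lay above all control lungs and all 3 A3B livers lay below all control livers. The adjusted p ranged from 0.00174 to 0.0366 over 20 alternatives. Cldn5 is far lower in liver, and A3B liver 28 stands apart from the other livers, and without that liver the difference was 1.58 (adjusted p = 0.00913).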

How the results depend on the processing

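Over 15 alternatives for the lung, Cldn5, Kdr and Pdpn kept their directions, and were called in 13, 8 and 9 of them. Of the 10 genes 0 were called when all 12 samples shared the variance estimate (1009 genes in all), and 0 to 2 with 1 lung left out (2998 to 4579 genes in all, the lowest counts without A3B lungs 69 and 70 and control lung 91). In the liver 54 genes were called without a filter, 4414 (2 of the 10 genes, Cldn5 and Pecam1) with the shared variance, and 1 to 1562 with 1 liver left out, fewest without control livers 91 (1) and 92 (9) and A3B liver 23 (55) and most without control liver 11. For the interaction 941 genes were called with median-ratio scaling, 824 with quantile normalization and 571 to 3072 with 1 sample left out (more without control liver 11 and A3B liver 70, fewer without any lung or control liver 91 or 92), and 1 to 2 of the 10 genes in the latter, the second being Ager, which is near 0 TPM in livers. With the mouse as a replicate block, pairing the tissues of mice 70 and 91, 2607 genes were called, the Cldn5 difference was 1.75 (limma adjusted p = 0.00174), and no call among the 10 genes changed. Median-ratio scaling moved the median of all genes from 0.39 to 0.003 in the liver and from -0.06 to 0.004 in the lung. With it the higher share of calls went from 76.6% to 45.7% in the liver and stood at 53.3% against 43.6% in the lung, and for the interaction it went from 18% to 56% (48.5% with quantile normalization).

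Signs changed only for genes that were not called. In the lung these were Hopx (0.03 with median-ratio scaling, 0.03 with the hepatocyte covariate, -0.14 to 0.05 with 1 lung left out), Pecam1 (0.01 with median-ratio scaling), Aqp5 (-0.01 with quantile normalization, -0.10 to 0.16 with 1 lung left out), Rtkn2 (-0.04 to 0.21) and Tek (-0.45 to 0.11). In the liver it was Tek (-0.15 with median-ratio scaling, -0.26 with quantile normalization, -0.09 to 0.60 with 1 liver left out). The cause was not tested. A fit with Y-chromosome expression was not run, since the lungs did not differ in it. Depth is unknown, and values near 0 TPM in the liver cannot be given a counting error.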
